A study of Rattus norvegicus with 4 samples.

Results

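The genes described here are 54 rat genes whose products build the mitotic spindle, the centromere and kinetochore, the condensed chromosome and the cleavage furrow, together with the kinases, cyclins and checkpoint proteins that time their action. They were chosen by function as a list of gene symbols, with the many lost peaks of Cenpe and Cit already known when the list was made, and each symbol was matched to its NCBI rat gene. Of the 54 genes, 35 had at least 1 listed m6A peak, among 8729 genes with a listed peak in either group. The other 19 had no listed peak in either group and are named below with their roles.

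The cells were neonatal rat cardiac fibroblasts (NRCFs), primary cells from hearts of Sprague-Dawley pups taken within 3 days of birth, and no treatment other than transfection was given in the labels for these libraries. The Vector group received the empty plasmid and is labelled as wild type in genotype, and the FTO group received pcDNA 3.1 carrying rat FTO cDNA and is labelled as FTO overexpression, both for 48 h. m6A-seq precipitates RNA fragments with an antibody against N6-methyladenosine (m6A), sequences them beside the unprecipitated input RNA, and calls a peak where the precipitated reads exceed the input. Each group had 1 m6A-IP and 1 input library and is represented by 1 list of peaks with their lengths. No difference between the groups therefore has a replicate error or a test, and the number of pups behind each library is not given in the sources used here. The share of cells that took up the plasmid is not given either, so a library may hold the RNA of transfected and untransfected cells together.

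A dividing cell copies its centromeres, assembles kinetochores on them, attaches these to spindle microtubules, and splits only after the spindle assembly checkpoint is satisfied and separase has opened the cohesin rings. Most of these genes are transcribed in a wave that peaks in G2 and M phase, under repressor and activator complexes that read CHR and CCAAT elements close to the start site, so their transcripts are abundant in proliferating fibroblasts and scarce in resting ones. FTO is an m6A demethylase, and m6A on a transcript can alter its splicing, decay and translation. A listed peak depends on the amount of transcript as well as on its methylation. Fewer dividing cells, less transcript per dividing cell and less methylation per transcript cannot be told apart in a list of peaks.

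The Vector list held 21249 peaks and the FTO list 17796, or 83.7% as many, and the number of reads behind either list is unknown. Fto itself had 3 listed peaks in Vector and 9 in FTO. Of 12 fibroblast markers, 7 had a listed peak, with 15 peaks in Vector and 12 in FTO. The receptor Pdgfra (7 and 6 peaks), fibronectin Fn1 (3 and 1), Thy1 (2 and 1) and periostin Postn (1 and 0) had fewer, Lum (1 and 2) and Ddr2 (0 and 1) had more, the transcription factor Tcf21 had 1 in each, and Col1a1, Col1a2, Col3a1, Vim and Dcn had none. Markers of cardiomyocytes also carried peaks, in 6 of 8 genes, with 23 in Vector and 25 in FTO, among them Myh6 (7 and 7), Myh7 (8 and 5) and Tnnt2 (4 and 7), and Ttn and Nppa at 0. Endothelial markers had 0 and 2 peaks, smooth muscle and pericyte markers 20 and 21 with most on Myh11 (17 and 15), and immune markers 12 and 9 with most on Ptprc (10 and 7). A gene without a listed peak is not thereby unexpressed. Whether other cell types were present, and what part they had in the mitotic peak numbers, was not tested.

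The mitosis genes had fewer listed peaks with FTO than with Vector in each of the 7 functional classes. In all, 191 peaks were listed for them in Vector and 98 in FTO, so the FTO number was 51.3% of the Vector number. Of the 35 genes with a peak, 29 had fewer FTO peaks, which compares with 41.4% of the 8729 genes. Cenpc, Tacc1, Smc4 and Ncapg2 had equal numbers. More FTO peaks were listed for Numa1, with 8 in Vector and 9 in FTO, and for Tacc2, with 8 and 10, against 21.2% of the 8729 genes. The median difference per gene was -2 peaks among the mitosis genes and 0 among the 8729 genes. The 8729 include 835 genes listed in FTO alone, which cannot have fewer, and the mitosis genes include none. The mitosis genes also held more Vector peaks per gene, 191 over 35 genes against 21249 over 7894, so they had more to lose. These comparisons were not matched for the number of Vector peaks. Without Cenpe and Cit, the numbers were 157 and 86 peaks, with 27 of 33 genes lower in FTO and a median difference of -1.

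**Figure D1:**
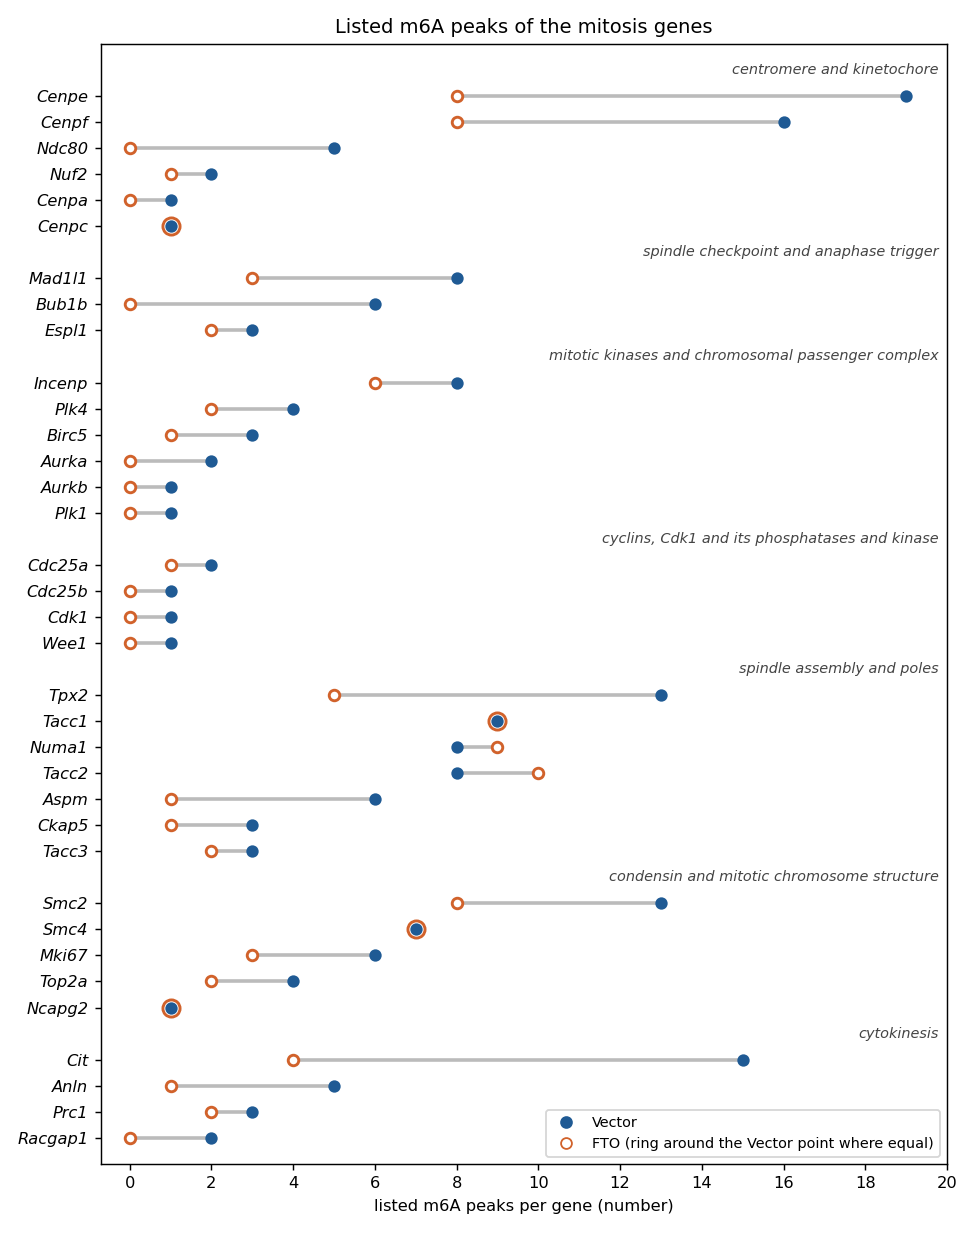
Number of listed m6A peaks (x axis) for each of the 35 mitosis genes with a peak (y axis), grouped by role; filled blue points give Vector and open orange points FTO, with a ring where both are equal. The FTO point lies left of the Vector point in 29 genes, and the longest lines belong to Cenpe (19 and 8) and Cit (15 and 4).

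In absolute numbers, the widest differences were those of Cenpe, Cit, Cenpf and Tpx2. Cenpe and Cit each had 11 fewer peaks, and only 2 of the 8729 genes had a larger deficit while 3 others shared the value of each. Cenpf and Tpx2 each had 8 fewer, which 10 genes exceeded. Bub1b had 6 fewer, exceeded by 37 genes, and Aspm, Mad1l1, Ndc80 and Smc2 had 5 fewer, exceeded by 60. Since Cenpe and Cit were known to stand out when the list was made, their rank describes the choice as much as the data.

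**Figure D2:**
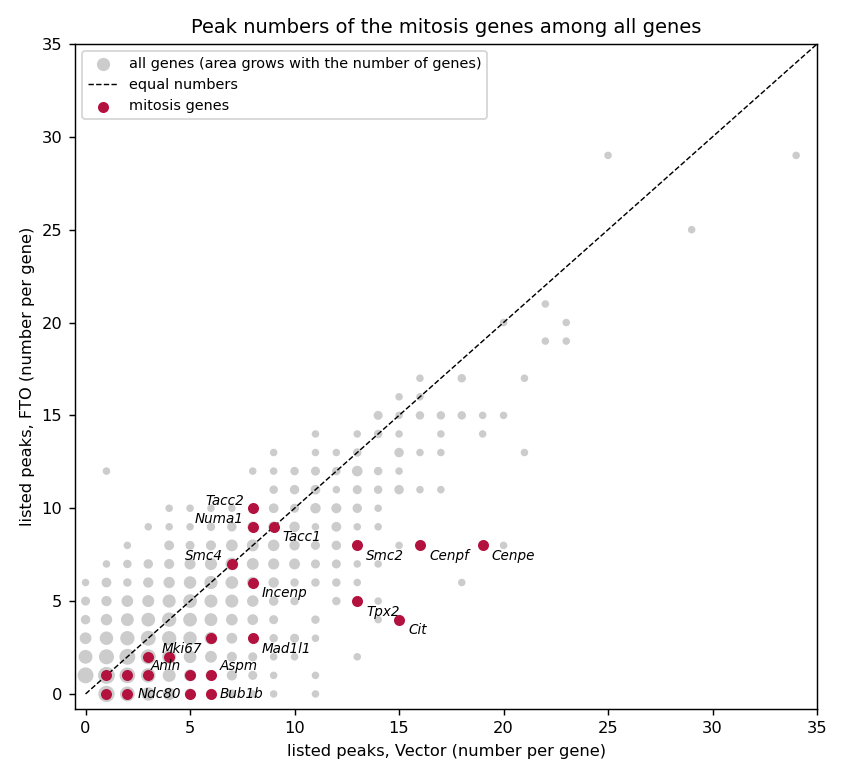
Listed peaks per gene in Vector (x axis, number) against FTO (y axis, number); grey points are combinations found among all 8729 genes, with an area that grows with the number of genes, red points are the mitosis genes, and the dashed line marks equal numbers. Cenpe, Cenpf, Cit, Tpx2 and Smc2 lie well below the line, Tacc1 and Smc4 lie on it, and Numa1 and Tacc2 lie above it.

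The complete loss of a gene from the list was also found. Of the 35 genes, 10 had peaks in Vector and none in FTO, which compares with 18.1% of the 7894 genes with a Vector peak, and none had peaks in FTO alone. These 10 were Bub1b with 6 peaks, Ndc80 with 5, Aurka and Racgap1 with 2 each, and Cenpa, Aurkb, Plk1, Cdk1, Cdc25b and Wee1 with 1 each. They include both Aurora kinases, the kinase subunit that drives entry into mitosis and the histone that marks the centromere. A gene with 1 peak leaves the list when that single peak is not called, so for 6 of the 10 the loss rests on 1 peak.

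The promoters of these genes are shown because many mitosis genes share elements in the stretch just before the start site. Of the 54 genes, 46 had an entry in the RefSeq promoter table (build GRCr8), which covers 250 bases before to 50 bases after each start. The searched motifs were TTTGAA, the core letters of the CHR (cell cycle genes homology region) through which the DREAM and MYBL2-containing complexes act, and CCAAT, the box bound by NF-Y, each on both strands and with no overlap between them. TTTGAA occurred in 33 of 46 promoters (71.7%), against 18.1% of 19005 protein-coding genes, and CCAAT in 29 of 46 (63.0%), against 39.8%. The 46 include genes without a listed peak in either group, so these shares describe the genes chosen, not a difference between the lists. The 120 bases before the start follow for 4 genes with fewer FTO peaks, Cenpe (chr2:226310937-226311056, plus strand), Cit (chr12:46424657-46424776, minus strand), Aspm (chr13:53625464-53625583, plus strand) and Cdk1 (chr20:19265173-19265292, plus strand), and for Numa1 (chr1:165738132-165738251, plus strand), which had 1 more. Each is written 5′ to 3′ on the strand of the gene, and capitals mark the letters of either motif, so that ATTGG is CCAAT on the opposite strand.
Cenpe: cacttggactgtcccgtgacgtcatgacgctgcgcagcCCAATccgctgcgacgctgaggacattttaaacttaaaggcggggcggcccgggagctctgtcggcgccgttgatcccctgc
Cit: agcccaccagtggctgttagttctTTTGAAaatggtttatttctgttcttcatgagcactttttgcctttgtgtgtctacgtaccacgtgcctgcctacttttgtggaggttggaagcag
Aspm: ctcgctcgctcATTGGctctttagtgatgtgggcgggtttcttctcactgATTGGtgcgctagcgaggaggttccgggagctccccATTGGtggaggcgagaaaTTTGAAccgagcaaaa
Cdk1: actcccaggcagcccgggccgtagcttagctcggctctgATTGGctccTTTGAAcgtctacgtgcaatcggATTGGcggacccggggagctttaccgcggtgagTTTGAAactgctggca
Numa1: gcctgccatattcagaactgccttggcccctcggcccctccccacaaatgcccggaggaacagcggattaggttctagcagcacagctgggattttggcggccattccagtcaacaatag

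Cdk1 held TTTGAA at 72 and 16 bases and CCAAT at 81 and 49 bases before the start. Aspm held TTTGAA at 16 bases and CCAAT at 109, 70 and 34 bases. Cenpe held a single CCAAT at 82 bases and Cit a single TTTGAA at 96 bases, and the Numa1 window held neither. Over the whole promoter entries, TTTGAA was found in 19 of the 24 genes with an entry and fewer FTO peaks and in 2 of the 5 with an entry and as many or more. CCAAT was found in 16 of the 24 and 2 of the 5, and a group of 5 genes is too small to compare with. A match of letters is a description and says nothing of binding, and the m6A peaks themselves lie on transcripts, not on these windows.

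To ask which individual peaks were gone, peaks of one gene with exactly the same length in both lists were taken as a pair. The 191 Vector peaks of the mitosis genes gave 78 such pairs. The 113 Vector peaks without a partner, called lost for short, were 59.2% of the total (Wilson 95% interval 52.1 to 65.9), against 42.7% of the 21249 peaks of all genes. When any peak of the same gene served as partner, 96 Vector peaks were still left without one. Most of the 113 thus follow from the lower FTO peak numbers whatever the lengths, and the share is not a separate result. Of the 98 FTO peaks, 20 had no partner, or 20.4% (13.6 to 29.4), against 31.6% of all FTO peaks. The FTO peaks of these genes were thus mostly a subset of their Vector peaks by length. Without Cenpe and Cit, 91 of 157 Vector peaks had no partner, or 58.0% (50.1 to 65.4). The intervals cover counting error only, treat peaks of 1 gene as independent, and say nothing of what another pair of libraries would give. A peak whose edge moved by a single base counts as unpaired, and peaks of equal length at different sites can be paired by chance.

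**Figure D3:**
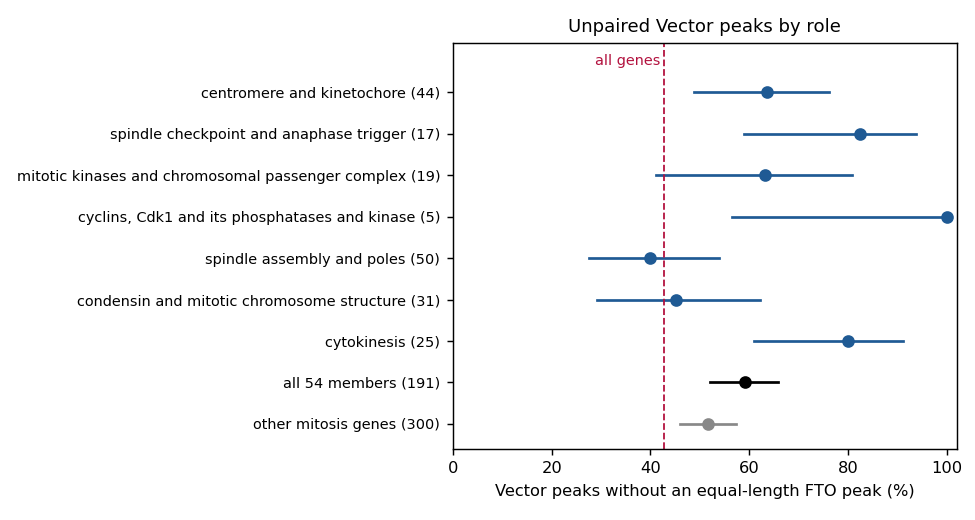
Share of Vector peaks left without a partner of equal length in FTO (x axis, percent) for each role (y axis, number of Vector peaks in brackets); points give the share, lines the Wilson 95% interval for counting error, and the dashed line the share over all genes (42.7%). The share was 80% in cytokinesis and 82.4% in the checkpoint class, while the spindle class (40%) and the condensin class (45.2%) lay near the share over all genes.

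Among the 9 centromere and kinetochore genes, 6 had peaks, with 44 in Vector and 18 in FTO, and 28 of the 44 (63.6%) had no partner. Cenpe, a kinesin motor that carries chromosomes towards the spindle equator, had 19 Vector peaks of 88, 159, 157, 89, 168, 120, 157, 273, 201, 159, 291, 288, 285, 282, 159, 261, 219, 204 and 210 bp in the order of their numbers. Its 8 FTO peaks were of 273, 201, 159, 291, 285, 282, 159 and 261 bp. Every FTO peak of Cenpe thus had a Vector partner, and the kept peaks formed 1 block in the middle of the Vector series, broken only by the missing 288 bp peak. The 7 peaks before the block and the 3 after it were absent from the FTO list.

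Cenpf, a large coiled-coil protein of the nuclear envelope and outer kinetochore, had 16 Vector peaks of 1108, 179, 477, 160, 2298, 3383, 136, 123, 129, 126, 203, 286, 113, 197, 194 and 110 bp. The 8 FTO peaks were of 907, 477, 153, 2298, 3383, 203, 286 and 197 bp. Both very long peaks, 2298 and 3383 bp, had the same length in the FTO list, while the run of 4 short peaks after them, of 136, 123, 129 and 126 bp, was absent. The difference in Cenpf lay wholly in short peaks, since counting only peaks of at least 200 bp its numbers did not differ between the groups.

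Ndc80, the microtubule-binding subunit of the outer kinetochore, had Vector peaks of 103, 131, 90, 153 and 206 bp and none in FTO. Its partner subunit Nuf2 had Vector peaks of 176 and 141 bp and kept the 176 bp peak. Cenpa, the histone H3 variant of centromeric chromatin, had a single Vector peak of 274 bp and none in FTO. Cenpc, which joins that chromatin to the kinetochore, had 1 peak of 590 bp in both lists. The inner kinetochore genes Cenpi and Cenpt and the outer kinetochore scaffold Knl1 had no listed peak.

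Of the 9 genes of the spindle checkpoint and the anaphase trigger, 3 had peaks, with 17 in Vector and 5 in FTO. Bub1b, which encodes the checkpoint kinase-like protein BubR1, had Vector peaks of 265, 147, 197, 215, 230 and 113 bp and none in FTO. Mad1l1, the kinetochore receptor of Mad2, had Vector peaks of 44, 141, 180, 125, 82, 131, 145 and 481 bp and FTO peaks of 82, 131 and 563 bp. Espl1, which encodes the protease separase, had peaks of 1056, 240 and 979 bp in Vector and of 240 and 986 bp in FTO. In this class 14 of the 17 Vector peaks had no partner (82.4%). The checkpoint genes Bub1, Bub3, Mad2l1 and Ttk, the anaphase activator Cdc20 and the separase inhibitor Pttg1 had no listed peak.

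Each of the 6 genes of the mitotic kinases and the chromosomal passenger complex had fewer FTO peaks, with 19 in Vector and 9 in FTO. Incenp, the scaffold of the passenger complex, had Vector peaks of 151, 251, 121, 135, 115, 776, 151 and 131 bp and FTO peaks of 105, 251, 121, 135, 776 and 151 bp. Birc5, which encodes its subunit survivin, had Vector peaks of 114, 118 and 491 bp and a single FTO peak of 531 bp. Aurkb, the kinase of the same complex, had 1 Vector peak of 2272 bp and none in FTO. The scaffold thus kept most of its peaks where the kinase was not listed in FTO. Aurka, the spindle pole kinase, had Vector peaks of 723 and 256 bp and none in FTO. Plk1, the polo kinase of mitotic entry, had a 156 bp peak in Vector alone. Plk4, the kinase of centriole duplication, lost its 260 and 115 bp peaks and kept those of 919 and 353 bp.

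The class of cyclins and of Cdk1 with its regulators held few peaks. The cyclin genes Ccna2, Ccnb1 and Ccnb2 and the phosphatase gene Cdc25c had none, and the remaining 4 genes had 5 peaks in Vector and 1 in FTO. Cdk1, the kinase that drives entry into mitosis, had a 76 bp peak in Vector alone, and Wee1, the kinase that inhibits it, a 645 bp peak in Vector alone. Cdc25b, a phosphatase that activates Cdk1, had a 174 bp peak in Vector alone. Cdc25a, a phosphatase of the same family, had Vector peaks of 413 and 174 bp and an FTO peak of 1727 bp. The FTO peak of Cdc25a was longer than both its Vector peaks together, so its peak number was lower and its summed length higher with FTO.

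The 8 spindle genes differed widely among themselves. Of these, 7 had peaks, with 50 in Vector and 37 in FTO, and 20 of the 50 (40%) had no partner. Tpx2, which activates Aurora A and nucleates microtubules near chromosomes, had 13 Vector peaks of 127, 132, 120, 122, 152, 169, 139, 217, 96, 177, 147, 112 and 188 bp. Its FTO peaks were of 132, 120, 122, 169 and 188 bp. The kept peaks of Tpx2 lay near the start and at the end of its Vector series, with a run of 6 absent peaks between those of 169 and 188 bp. Aspm, which holds microtubule minus ends at spindle poles, had Vector peaks of 1447, 3780, 167, 210, 150 and 193 bp and kept only the one of 3780 bp. Ckap5, a microtubule polymerase, had Vector peaks of 129, 114 and 702 bp and kept the longest.

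The 3 TACC genes, whose products share a coiled coil at the carboxyl end, differed among themselves. Tacc1 had 9 peaks in both lists with the same lengths in the same order, 407, 1099, 61, 121, 53, 126, 77, 161 and 107 bp. Tacc2 had Vector peaks of 135, 137, 1300, 292, 144, 77, 161 and 399 bp and FTO peaks of 3622, 135, 137, 1300, 172, 144, 77, 44, 161 and 535 bp. Tacc3, the family member most tied to the spindle, had 121, 161 and 445 bp in Vector and lost the first in FTO. Numa1, which tethers microtubules at the poles and sits in the nucleus between divisions, had Vector peaks of 80, 83, 158, 3354, 69, 219, 247 and 1008 bp. Its FTO peaks were of 87, 80, 158, 3354, 42, 69, 219, 247 and 1053 bp. In Numa1, 6 peaks kept their length, and the last peak was of 1008 bp in Vector and 1053 bp in FTO. Nusap1, a microtubule-bundling protein, had no listed peak.

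Of the 9 genes of condensin and mitotic chromosome structure, 5 had peaks, with 31 in Vector and 21 in FTO. Smc2, an ATPase subunit of both condensins, had 13 Vector peaks of 171, 123, 39, 111, 234, 234, 160, 136, 125, 194, 144, 195 and 201 bp. Its 8 FTO peaks of 111, 234, 234, 160, 125, 194, 195 and 201 bp all had partners. Smc4, the other ATPase subunit, had Vector peaks of 314, 165, 151, 165, 234, 190 and 174 bp and FTO peaks of 314, 177, 165, 151, 165, 234 and 190 bp. The subunits of this heterodimer therefore differed in the lists, with 5 fewer peaks in Smc2 and equal numbers in Smc4. Ncapg2, a condensin II subunit, had 1 peak in each list, of 3206 and 3138 bp.

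Mki67, the proliferation antigen that coats mitotic chromosomes, had Vector peaks of 340, 411, 4020, 262, 176 and 338 bp and FTO peaks of 261, 4020 and 963 bp. Its 4020 bp peak was common to both lists, as were the longest peaks of Cenpf and Aspm. Top2a, the topoisomerase that untangles sister chromatids, had Vector peaks of 91, 183, 162 and 196 bp and kept those of 183 and 162 bp. Ncapd2, Ncapd3, Ncapg and Ncaph had no listed peak, so the condensin peaks came from the ATPases and Ncapg2.

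Of the 5 cytokinesis genes, 4 had peaks, and each had fewer with FTO, 25 in Vector and 7 in FTO. Cit, which encodes citron kinase of the midbody, had 15 Vector peaks of 532, 310, 180, 194, 198, 175, 110, 117, 96, 126, 141, 120, 608, 176 and 142 bp, listed on 3 transcripts. Its 4 FTO peaks were of 532, 310, 175 and 126 bp, all with partners. Anln, which encodes the ring protein anillin, had Vector peaks of 57, 111, 108, 191 and 217 bp and an FTO peak of 183 bp. Prc1, which bundles the central spindle, had peaks of 129, 133 and 96 bp in Vector and 133 and 147 bp in FTO. Racgap1, a subunit of centralspindlin, had Vector peaks of 89 and 112 bp and none in FTO. In this class 20 of the 25 Vector peaks (80%) had no partner. Ect2, the exchange factor that activates RhoA at the equator, had no listed peak.

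The numbers in the peak names preserved the order of peaks along the genome, so the place of the lost peaks within a gene could be followed without coordinates. Going from gene to gene in the RefSeq GRCr8 order, the Vector peak number rose in 7054 of 7468 neighbouring steps (94.5%). All 78 pairs of the mitosis genes kept the same order in both lists. Around Cenpe, on the plus strand, the numbers rose in 10 of 10 steps across its neighbours, so the 7 peaks lost before its block lay on the 5′ side of the kept peaks and the 3 lost after it on the 3′ side. Around Cit, on the minus strand, they also rose in 10 of 10 steps. Its first numbers thus lay towards the 3′ end, where the 532 and 310 bp peaks were kept, and the last 5 Vector peaks, of 141, 120, 608, 176 and 142 bp, lay towards the 5′ end and were absent with FTO. The strand comes from GRCr8 and the peaks from rn6, and the direction assumes that these genes were not inverted between the builds.

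Peak numbers were not consecutive, since the highest was 59557 in Vector and 52060 in FTO while far fewer peaks were listed, and some skipped numbers fell where Vector peaks were lost. In Cenpe the 288 bp Vector peak stood between the kept peaks of 291 and 285 bp, and at that place the FTO list skipped 1 number. In Cenpf the 4 short Vector peaks between 3383 and 203 bp met 4 skipped FTO numbers, and the 113 bp peak between 286 and 197 bp met 1. In Cit the 3 Vector peaks between 175 and 126 bp met 3 skipped FTO numbers. In Smc2 the 136 and the 144 bp peak each met 1, and in Tpx2 the 152 bp peak met 1 and the run of 6 between 169 and 188 bp met 5. Over these 8 intervals, 18 of the 113 lost Vector peaks stood opposite 17 skipped FTO numbers. They were kept because no Vector number was skipped and no FTO peak was unpaired in them. In 3 intervals left out for skipped Vector numbers alone, the numbers did not match. Lost peaks and skipped FTO numbers were 3 and 2 in Cit (310 to 175 bp), 1 and 2 in Incenp (135 to 776 bp) and 1 and 0 in Numa1 (80 to 158 bp).

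The skipped numbers were not spread evenly through the genes. Where neighbouring paired peaks of the mitosis genes had consecutive Vector numbers, the FTO list skipped a number between them in 0 of 38 cases, and over all genes in 207 of 4252 (4.87%). Where paired peaks enclosed lost Vector peaks, with no skipped Vector number and no unpaired FTO peak between them, the number of skipped FTO numbers equalled that of the lost peaks in 7 of 8 intervals of the mitosis genes and in 217 of 452 intervals over all genes (48%). No number was skipped in 0 of the 8 intervals and in 179 of the 452 (39.6%). What a skipped number stands for is not given in the sources used here, and whether it is a peak that was called and then removed was not tested. These counts were made after the data had been examined.

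**Figure D4:**
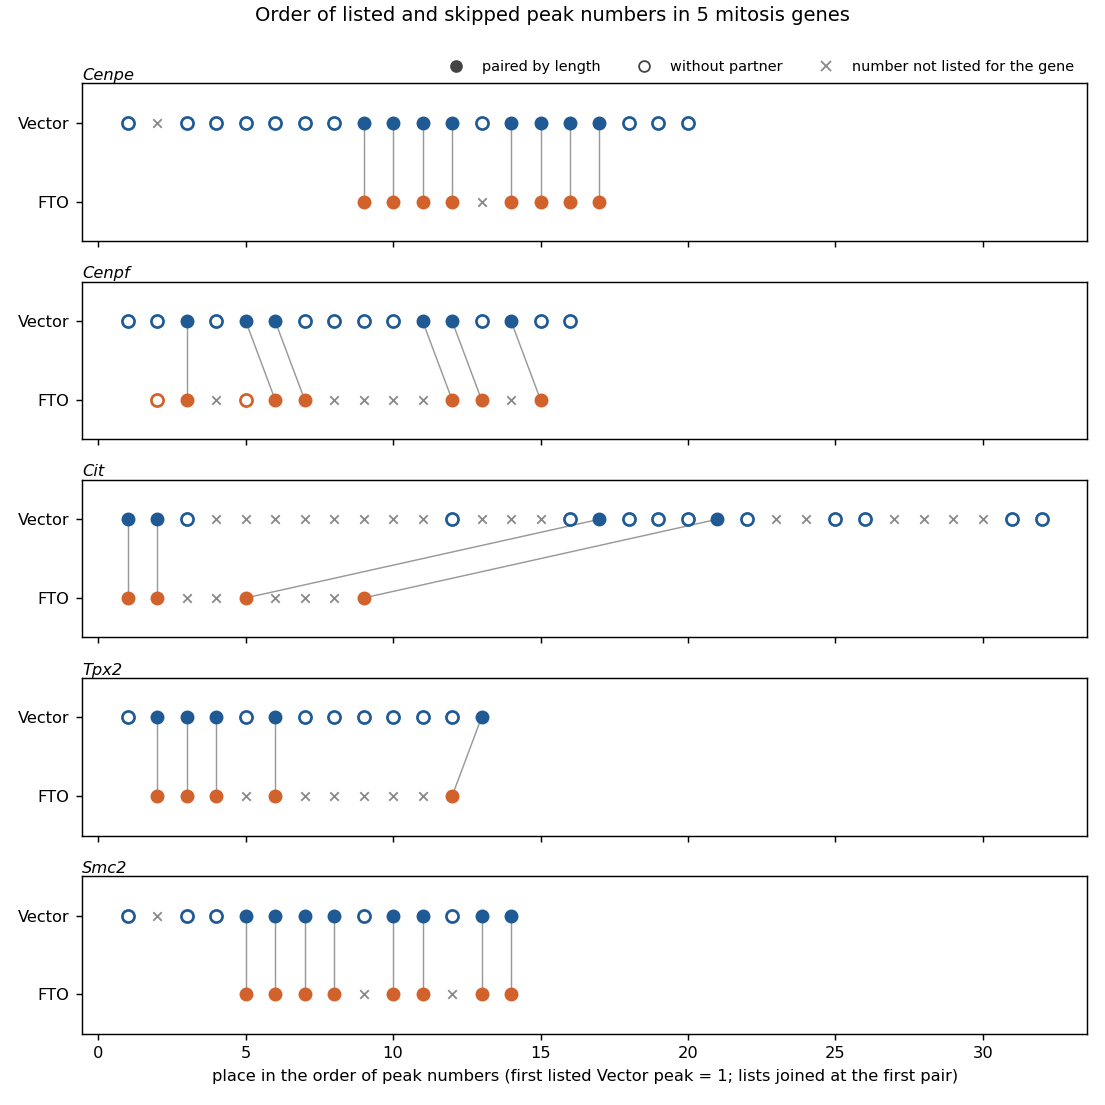
Peaks of Cenpe, Cenpf, Cit, Tpx2 and Smc2 by their place in the order of peak numbers (x axis, number, first listed Vector peak as 1 and both lists joined at the first pair), with Vector above and FTO below in each panel; filled circles are peaks paired by length, open circles peaks without a partner, crosses numbers not listed for the gene, and lines join pairs. Some crosses in the FTO row stand between the same pairs as open Vector circles. Examples are the 4 short peaks of Cenpf, the single peak inside the kept block of Cenpe and the run of 6 in Tpx2 with 5 crosses. Crosses are drawn only between the first and last listed number of a gene, so open Vector circles outside the FTO stretch have none.

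For genes absent from the FTO list, the same reading used the nearest genes with pairs on both sides. For Cdc25b, the interval between Cenpb and Ap5s1 held 1 Vector number, that of its 174 bp peak, and 1 FTO number, which was not listed. For Cdk1, the interval between Ank3 and Rhobtb1 held 3 Vector numbers with 1 listed and 1 FTO number with none listed. For Bub1b, the interval between Bmf and Ankrd63 held 13 Vector numbers with 8 listed and 5 FTO numbers with none listed. The Bub1b interval thus had fewer FTO numbers than the 6 Vector peaks of the gene, whereas that of Cdc25b had as many. Vector and FTO numbers were 5 and 2 for Aurka, 8 and 5 for Cenpa, 11 and 2 for Racgap1, 12 and 8 for Aurkb, 19 and 12 for Wee1 and 52 and 38 for Ndc80. Around Plk1 the FTO list held 10 numbers, none of them listed, and the Vector list 9, so the intervals of the 10 genes did not share 1 pattern.

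The lost peaks were shorter at the median than the paired ones, here and over all genes. Short peaks were common among the mitosis genes in any case, with a median of 165 bp over all their Vector peaks. Of the 113 Vector peaks without a partner, the median length was 156 bp, and of the 78 with one it was 185.5 bp. Over all genes these medians were 191 and 211 bp. In each length class the paired share of the mitosis genes lay below that of all genes. Under 100 bp, 35% of their Vector peaks were paired against 49.3% of all genes, and from 100 to 199 bp 35.6% (27.0 to 45.1) against 56.7%. From 200 to 499 bp the shares were 48.9% and 62.8%, and from 500 bp 54.5% and 56.9%. The distance was widest from 100 to 199 bp, and in the other classes the share of all genes lay inside the counting interval of the mitosis genes.

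**Figure D5:**
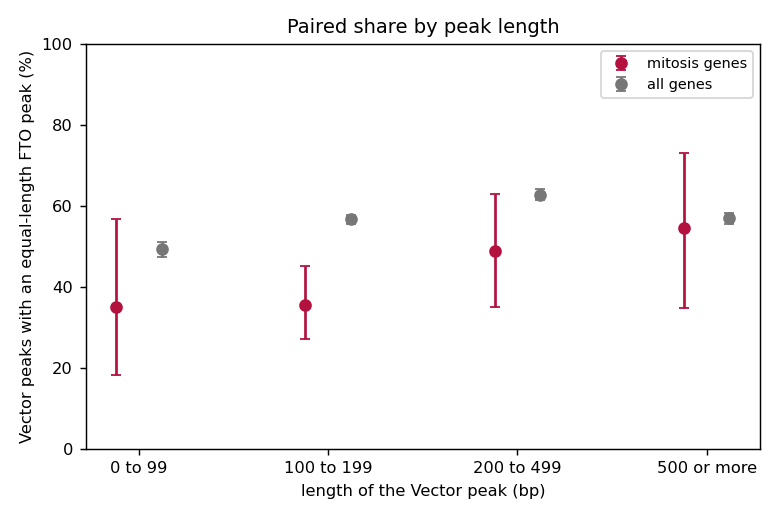
Share of Vector peaks with a partner of equal length in FTO (y axis, percent) by length of the Vector peak in bp (x axis) for the mitosis genes (red) and all genes (grey); bars give the Wilson 95% interval for counting error. The red points lie at 35%, 35.6%, 48.9% and 54.5% from the shortest to the longest class, below grey points at 49.3%, 56.7%, 62.8% and 56.9%.

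Summed peak length differed less between the lists than peak number did. The summed length of all listed peaks of the mitosis genes was 65622 bp in Vector and 50502 bp in FTO, or 77.0%, against 93.2% over all genes. The median peak length was 165 bp in Vector and 189 bp in FTO, and over all genes 203 and 228 bp. The means, which the few peaks of several kilobases raise, were 344 and 515 bp, and over all genes 495 and 550 bp. Counting only peaks of at least 200 bp, the mitosis genes had 67 peaks in Vector and 45 in FTO. On that count 14 of the 28 genes with such a peak had fewer in FTO, none had more, and 27.5% of the 7423 genes with such a peak had fewer. Cenpe then had 4 fewer, Bub1b 3 fewer, Aspm, Mki67 and Aurka 2 fewer, Cit and Tpx2 1 fewer, and Smc2 and Cenpf equal numbers.

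A further 134 mitosis genes from the same pathways, with no member of the first list among them, were taken for comparison. They too were chosen with earlier results of these data known. Of these, 100 had a peak, with 300 in Vector and 183 in FTO (61.0%, against 83.7% over all genes). Fewer FTO peaks were listed for 64, as many for 29 and more for 7, against 41.4% with fewer and 21.2% with more over all genes. Vector peaks without a partner made up 51.7% (46 to 57.3), against 42.7% over all genes. The lists within them ranged widely. The other kinetochore genes had 44 Vector and 18 FTO peaks (40.9%), and the genes of mitotic entry and exit 36 and 14 (38.9%), both lower shares than the 51.3% of the first list. Vector peaks without a partner made up 72.7% and 72.2% in these lists. Of the other kinetochore genes, 15 had fewer, 7 as many and 0 more, with Clasp1, a microtubule-stabilizing protein, at 8 and 6 peaks, followed by Spdl1, which recruits dynein to kinetochores, at 6 and 0 and the centriole gene Cenpj at 4 and 2. Of the centrosome and other spindle genes, 18 had fewer, 4 as many and 2 more, with the pericentriolar scaffold Pcnt at 21 and 13 and Cdk5rap2, which anchors the microtubule nucleation complex, at 12 and 8. Of the genes of mitotic entry and exit, 9 had fewer, 3 as many and 0 more, with Lin54, the subunit of the DREAM complex that reads the CHR, at 5 and 3 and the nuclear lamina gene Lmnb1 at 6 and 2.

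The remaining 3 lists had 75%, 72.6% and 80.8% as many FTO peaks as Vector peaks for cohesin, other cytokinesis genes and the anaphase-promoting complex, in that order. Of the anaphase-promoting complex and its regulators, 5 genes had fewer, 9 as many and 1 more, with its subunits Cdc27 at 5 and 4 peaks and Anapc7 at 3 and 3. Of the cohesin genes, 8 had fewer, 4 as many and 1 more, with the ring subunit Smc1a at 9 and 9 and the loader Nipbl at 8 and 10. Of the other cytokinesis genes, 9 had fewer, 2 as many and 3 more, with the RhoA-activated kinases Rock1 at 16 and 13 and Rock2 at 12 and 6. The share of genes with fewer FTO peaks was 41.4% over all genes, and these lists of 12 to 24 genes with a peak have no test of their distance from it.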

How the data were processed

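Neonatal rat cardiac fibroblasts were transfected with Vector or FTO plasmid, and m6A-IP and input RNA were sequenced, 1 library of each per group. Per the labels' processing notes, reads were trimmed with cutadapt 1.9.3 and aligned with HISAT2 2.0.4, with build rn6. The authors deposited 1 peak list per group with a peak name, an Ensembl transcript, an NCBI gene ID and the peak length in bp, which is not normalized. The peak names carry the prefix of MACS, and the version, threshold and filters of the peak calling are not given in the sources used here. The lists thus show only peaks that passed the authors' calling, and depth, peak height and input level are unknown. Fold enrichment, positions and expression levels were not used here.

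The members and lists were chosen with earlier results of these data known. Symbols were matched to gene IDs through the RefSeq GRCr8 gene table, which held 7489 of 7723 gene IDs of the Vector list and 6920 of 7145 of the FTO list. All 54 members were found. Members with a peak are named with their numbers, and those that differed by 3 or more or had 5 or more peaks also with each length. Of each list of other mitosis genes, those with the most peaks are named, and marker lists are given as counts with examples. Within a gene, peaks of equal length were paired 1 to 1. The counting of pairs was checked on a list simulated from the Vector list, with peaks dropped at random and some lengths changed by large amounts. That list held no small shifts of peak edges, so the check does not show how well pairing works in the real lists. No test between groups was made, since libraries were not replicated. Alternatives were a minimum length of 100 or 200 bp, pairing within 10% of length or with any peak of the gene, scaling of the FTO numbers by the ratio of list sizes, summed length, and leaving out Cenpe and Cit. Others were distinct peak names, rows with no gene ID added by transcript, and pairing within a transcript or in the same order. Promoter motifs were searched in RefSeq sequences. Python 3.11.15, numpy 2.4.6, pandas 2.3.3 and matplotlib 3.10.9 were used.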

Additional observations from a re-analysis of the deposited data

How the results depend on the processing

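The direction of the difference in peak number held for the mitosis genes as a group under each alternative tried, and its size depended most on short peaks. Of 42 recomputed values, 31 stayed within 1.5 times the reported one and 11 did not. The 31 include values equal to the main ones, from distinct peak names, added rows without a gene ID, and pairing within a transcript. Pairs in the same order also repeated the main values. Adding rows could change nothing, since no such row lay on a member transcript. These repeats say little of stability. Counting from 200 bp up left 67 Vector and 45 FTO peaks, 14 genes with fewer and 0 with more FTO peaks, with 33 Vector and 11 FTO peaks without a partner. Counting from 100 bp up, 27 of 34 genes with such a peak had fewer FTO peaks, against 38.5% of 8506 genes, and 1 had more. Peaks without a partner in FTO numbered 9 when lengths within 10% were paired and 3 when any peak of the gene was. After scaling the FTO numbers by 1.19, 4 genes had more and 23 fewer by a gap of at least 1 peak. Smaller scaled gaps are left out of these counts, and no share over all genes on that scale is given. By summed length, 4 genes had more. Leaving out Cenpe and Cit, pairing within a transcript, and requiring pairs in the same order, an alternative added after the data were examined, gave values within that range. No paired analysis was possible because the m6A-IP and the input were sequenced once per group, and for the same reason no library could be left out.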

Other observations

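Lengths of 77 and then 161 bp, with at most 1 peak between them, occurred in 2 genes of each list, Tacc1 and Tacc2. A 161 bp peak was listed for Tacc3 too, while 87 genes in Vector and 55 in FTO had a peak of that length. The positions of these peaks were not used here, so whether they lie on corresponding exons of the family was not tested.

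The peak lengths of Cenpe were mostly multiples of 3. This held for 15 of its 19 Vector peaks (78.9%) and for 8 of its 8 FTO peaks, against 39.5% and 42.2% of the peaks of the other mitosis genes and 38.1% and 38.0% of the peaks of all genes in Vector and FTO. The pattern was noticed after the lengths had been seen, and peaks of 1 gene are not independent.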
